A study of Mus musculus with 18 samples.

Results

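The enzymes described here are 10 genes that handle reactive oxygen species or supply reducing power: Txnrd1, Txn1, Prdx1, Prdx2, Sod1, Sod2, Cat, Gpx1, Gclc and Idh1. They were taken as every probe set annotated to 1 of these symbols alone, which gave 12 probe sets of 13057 on the arrays, and 10 genes of 6137 named there. Txnrd1 and Idh1 were selected on their measured intensity, which was already known to be lower in homozygous mutants than in wild type in these data, so that difference is a description and supports nothing. The other 8 genes were added to ask whether that fall is shared by other antioxidant enzymes.

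The tissue was the middle of 3 parts of the mouse embryo, taken at embryonic day 9.5. Embryos were of 3 genotypes for Nkx2-5 (Csx), a heart transcription factor with a homeodomain: wild type, heterozygous and homozygous mutant. Each genotype was measured on 3 arrays of each of 2 types, 18 arrays in all, and types a and b hold different probe sets. Wild type arrays are numbered 1, 5 and 7, heterozygous arrays 3, 4 and 8, and homozygous mutant arrays 2, 6 and 8 on type a (8a) or 2, 6 and 9 on type b (9b). The labels do not name the mutant allele, the strain, the sex, the somite stage or the litter, nor say whether an array held 1 embryo or a pool. The p-values thus cover the spread among these arrays alone, and that spread may be technical.

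Thioredoxin and glutathione are the main carriers of reducing power against oxidants in the cell. Thioredoxin reductase recharges thioredoxin with electrons from NADPH, thioredoxin recharges the peroxiredoxins, and these remove hydrogen peroxide, while superoxide dismutases make hydrogen peroxide from superoxide and catalase and glutathione peroxidase break it down. Cytosolic isocitrate dehydrogenase makes NADPH while turning isocitrate into 2-oxoglutarate, so it belongs to the supply side of the same system.

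Each value is the intensity of a probe set, several short probes read together as 1 number. Levels are compared only within a probe set, since probes differ in brightness. Of the 12 probe sets 5, of Txn1, Prdx1, Prdx2 and Sod1, carry the maker's suffix for probes that may match several members of a gene family, and signal from related genes was not tested. All 12 probe sets passed the filter on low signal, a floor of 375.1 on type a and 523.1 on type b exceeded on at least 3 of 9 arrays. Of these, 11 exceeded it on all 9 arrays. Fold changes are on the log2 scale from limma, fitted over all 6935 tested probe sets, with Benjamini-Hochberg adjustment over all of them and intervals at 95%. A change was called at an adjusted p under 0.05. In bulk tissue, fewer cells of a type and less RNA per cell cannot be told apart.

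Txnrd1 encodes the cytosolic thioredoxin reductase, a selenoprotein. Its probe set (aa408677_rc_s_at, type a) read 4225.4, 3849.1 and 5088.6 on wild type arrays 1, 5 and 7, and 3852.3, 3851.1 and 4404.4 on heterozygous arrays 3, 4 and 8. On homozygous mutant arrays 2, 6 and 8a it read 2545.9, 2682.9 and 2211.4. All mutant arrays lay under all 6 others, and heterozygous and wild type arrays overlapped. The mean was 4388 ± 635 in wild type, 4036 ± 319 in heterozygotes and 2480 ± 243 in mutants (SD, n = 3 arrays each). The mutant level differed from wild type by -43.3%, a log2 difference of -0.82 (SE 0.161, interval -1.17 to -0.47), which is the difference that chose the gene.

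Idh1 encodes the cytosolic, NADP-dependent isocitrate dehydrogenase. Its probe set (aa273845_s_at, type a) read 4799.6, 4554.8 and 4857.7 on wild type arrays 1, 5 and 7. It read 4465.6, 4476.5 and 4360.4 on heterozygous arrays 3, 4 and 8, and 2249.0, 2914.2 and 2753.1 on mutant arrays 2, 6 and 8a. Mutant arrays again lay under all others with a wide gap, and the heterozygous arrays lay just under the wild type arrays without overlap. The means were 4737 ± 161, 4434 ± 64.1 and 2639 ± 347 (SD, n = 3 each). The choosing difference from wild type was -44.6%, or -0.85 on the log2 scale (SE 0.145, interval -1.17 to -0.53).

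These 2 were the only member probe sets called in homozygous mutants against wild type, where 0.692% of all tested probe sets were called, 0.187% as lower. The limma adjusted p that goes with the choice was 0.0440 for Txnrd1 and 0.0191 for Idh1, so Txnrd1 sat just inside the threshold. Over 18 alternative settings the difference of Txnrd1 ranged from -0.91 to -0.71 and was called in 3. That of Idh1 ranged from -0.93 to -0.74 and was called in 10. The size thus moved little, while the call often did not hold.

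With heterozygotes as the control group, the mutant level differed by -38.6% for Txnrd1 (log2 -0.70, SE 0.161, limma adjusted p = 0.0603) and by -40.8% for Idh1 (log2 -0.76, limma adjusted p = 0.0319). In that comparison 1.15% of all tested probe sets were called, 0.418% as lower. It shares the 3 mutant arrays with the first comparison and adds no independent support. Against wild type, heterozygotes differed by -0.11 for Txnrd1 (interval -0.47 to 0.24) and by -0.09 for Idh1 (interval -0.41 to 0.22). Heterozygous arrays thus read near wild type for both enzymes. The intervals leave out the mutant estimates of the loss, which are the values that chose both genes.

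**Figure D1:**
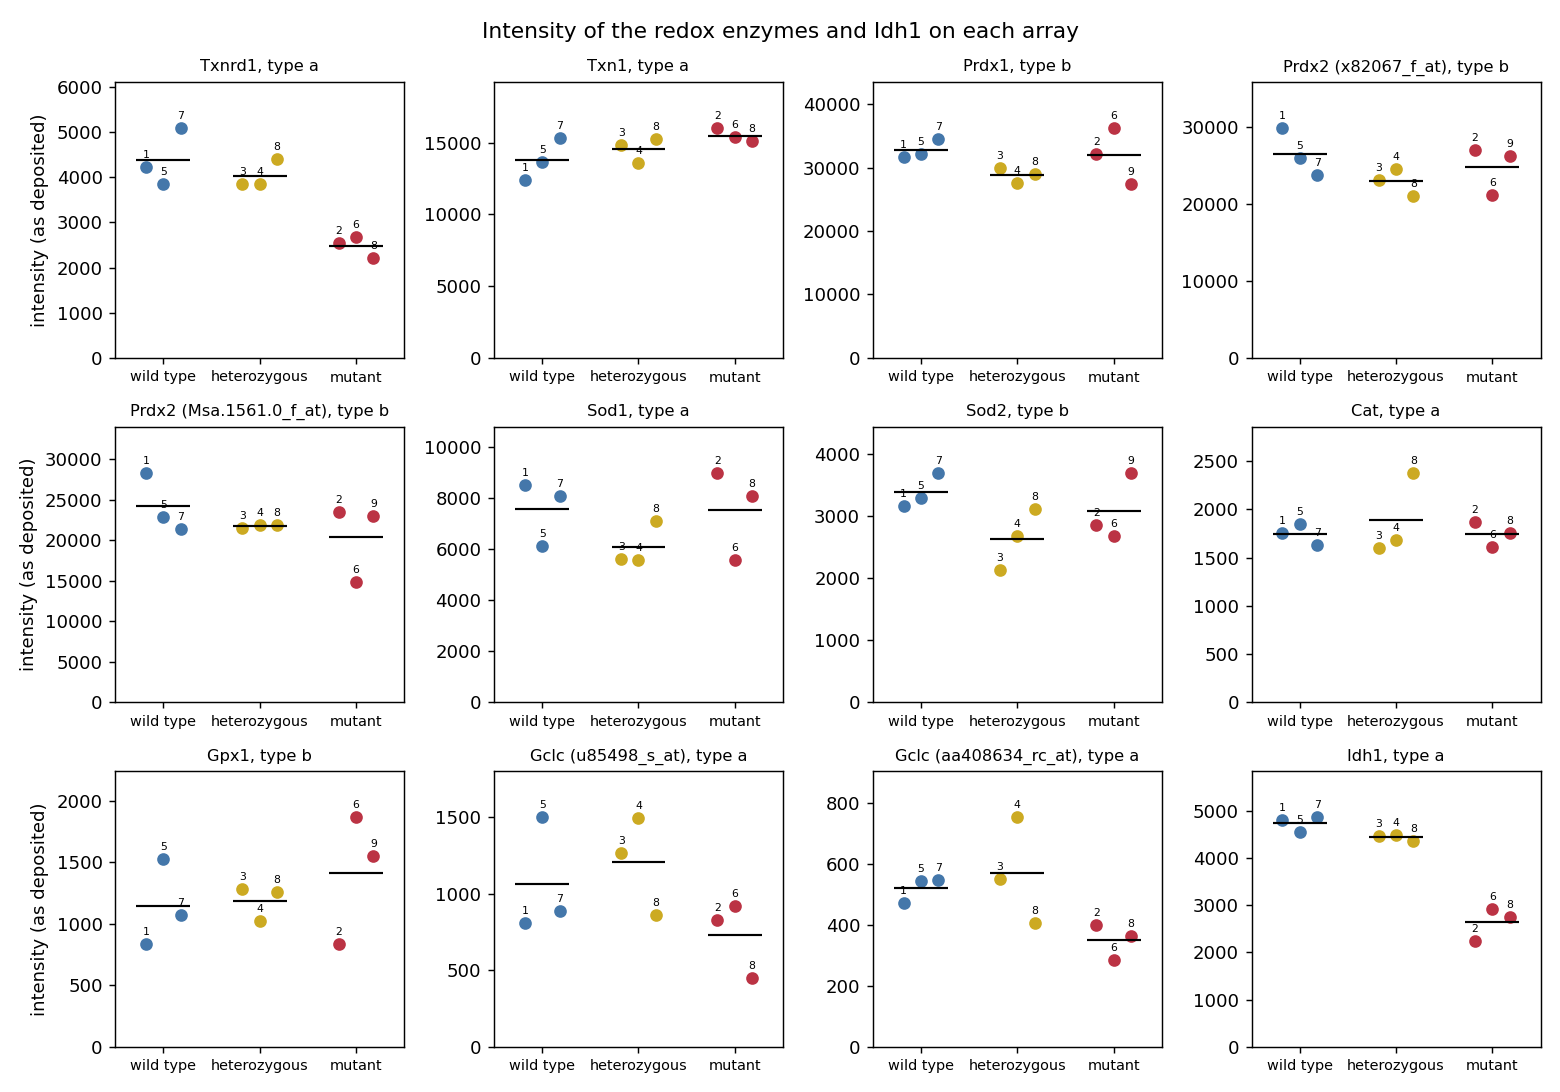
Intensity as deposited (vertical axes from 0, 1 panel per probe set) on each array of the 3 genotypes, with the replicate number beside each point and a bar at the mean of 3 arrays. For Txnrd1 and Idh1 all mutant arrays sit under all others, as for the dim Gclc probe set. In the other panels mutant and wild type arrays overlap.

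Promoter sequences are shown for Txnrd1 and Idh1, and for Prdx1 and Sod1, which held a match to the antioxidant response element. This element is bound by the oxidant-responsive factor Nrf2. Promoter sequence was not read in choosing the genes, though most were picked as antioxidant enzymes. RefSeq windows (build GRCm38.p6) were found for 9 of the 10 genes, 12 windows in all, and Gclc was not matched. The core TGACNNNGC was searched on both strands, counting overlapping matches, in 250 bases before and 50 after each start. It was found in 3 of 12 windows (25%), for Txnrd1, Prdx1 and Sod1, against 12.4% of all 32851 windows of the same length. By gene it was 3 of 9 members (33.3%) and 14% of all 27025 genes. Below are the 250 bases before the start, 5′ to 3′ on the gene's strand, with the match in capitals.
Txnrd1, chr10:82858956-82859205, plus strand: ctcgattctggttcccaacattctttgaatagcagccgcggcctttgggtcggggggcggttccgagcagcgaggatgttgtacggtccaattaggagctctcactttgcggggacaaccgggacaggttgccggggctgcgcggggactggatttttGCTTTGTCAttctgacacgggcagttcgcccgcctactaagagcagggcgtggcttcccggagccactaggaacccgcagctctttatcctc
Idh1, chr1:65186480-65186729, minus strand: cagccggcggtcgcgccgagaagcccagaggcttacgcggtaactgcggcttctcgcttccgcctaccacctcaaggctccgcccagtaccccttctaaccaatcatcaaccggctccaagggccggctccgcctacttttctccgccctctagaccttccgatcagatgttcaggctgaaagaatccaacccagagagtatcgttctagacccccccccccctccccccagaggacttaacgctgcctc
Prdx1, chr4:116685349-116685598, plus strand: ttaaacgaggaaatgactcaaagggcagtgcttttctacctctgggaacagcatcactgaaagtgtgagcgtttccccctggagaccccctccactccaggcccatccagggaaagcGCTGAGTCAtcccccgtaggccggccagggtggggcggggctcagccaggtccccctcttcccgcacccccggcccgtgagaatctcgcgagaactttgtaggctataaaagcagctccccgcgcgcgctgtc
Sod1, chr16:90220512-90220761, plus strand: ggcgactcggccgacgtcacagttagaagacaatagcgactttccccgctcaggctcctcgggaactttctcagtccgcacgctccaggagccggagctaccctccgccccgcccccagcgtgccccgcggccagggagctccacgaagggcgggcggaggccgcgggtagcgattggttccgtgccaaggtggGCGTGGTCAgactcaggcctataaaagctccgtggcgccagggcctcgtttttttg

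The Txnrd1 match is on the reverse strand, 92 to 84 bases before the start of the second of 3 annotated starts. The Prdx1 match lies 133 to 125 bases and the Sod1 match 56 to 48 bases before the start. The Idh1 window, the first of 2, has no match. A match is a description and not a binding site. Of the genes with a match, Txnrd1 was chosen for its low mutant level, and Prdx1 and Sod1 were not called. Idh1, chosen in the same way, had no match in the window. Any link between a match and the values was not tested.

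Among the thioredoxin partners, Txn1, the cytosolic thioredoxin that Txnrd1 reduces, did not share the low mutant level. Its probe set (d21859_f_at, type a) read 12428.4, 13650.8 and 15347.6 on wild type arrays 1, 5 and 7, then 14856.7, 13590.1 and 15232.7 on heterozygous arrays 3, 4 and 8. Mutant arrays 2, 6 and 8a read 16004.7, 15363.5 and 15123.5. The mutant arrays stood at the upper end, overlapping both other genotypes, and the highest array was 1.29 times the lowest. The log2 difference between mutant and wild type was 0.17 (SE 0.134, interval -0.12 to 0.47, limma adjusted p = 0.695). On the same arrays the Txnrd1 difference had the opposite sign, but that value chose the gene. A contrast between the reductase and its substrate was not tested.

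Prdx1, an abundant cytosolic peroxiredoxin, read 31730.4, 32160.9 and 34448.4 on wild type arrays 1, 5 and 7 (its type b probe set). It read 29941.2, 27584.9 and 29065.0 on heterozygous arrays 3, 4 and 8, and 32084.4, 36215.0 and 27462.1 on mutant arrays 2, 6 and 9b. The mutant arrays spanned the whole range of the other genotypes, with 9b the lowest of all 9 arrays and 6 the highest. The mutant difference was -0.05 (SE 0.183, interval -0.45 to 0.35, limma adjusted p = 0.951). A type a probe set annotated to both Prdx1 and Gm21399 differed by -0.08 (SE 0.209) and is not counted as Prdx1.

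Prdx2, the peroxiredoxin of highest abundance in red cells, had 2 probe sets on type b, both with the same source sequence, so they are not separate evidence. The first (x82067_f_at) read 29870.4, 25954.2 and 23803.2 on wild type arrays 1, 5 and 7, then 23171.4, 24617.6 and 21054.3 on heterozygous arrays 3, 4 and 8. Mutant arrays 2, 6 and 9b read 26994.3, 21211.2 and 26273.2. The genotypes overlapped, and mutant array 6 was lowest among mutants on both probe sets. The mutant difference was -0.10 (interval -0.50 to 0.31) on the first and -0.26 (interval -0.73 to 0.21) on the second, which became -0.05 without mutant array 6. Red cells are common at this stage, and 7 tested red cell markers had a median mutant difference of -0.02, and their summed level on type b, the type of both Prdx2 probe sets, was 118903 to 163213 in wild type and 99021 to 210105 in mutants. On that sum mutant arrays reached both below and above all wild type arrays. The part of red cells in the Prdx2 level was not tested.

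Sod1 encodes the cytosolic copper and zinc superoxide dismutase and Sod2 the mitochondrial manganese enzyme. Sod1 (m60798_f_at, type a) read 8497.6, 6126.9 and 8075.5 on wild type arrays 1, 5 and 7, 5604.1, 5547.3 and 7089.7 on heterozygous arrays 3, 4 and 8, and 8976.0, 5559.5 and 8052.4 on mutant arrays 2, 6 and 8a. Both wild type and mutant arrays had 1 low value, and the genotypes overlapped. The mutant difference was -0.02 (SE 0.202, interval -0.46 to 0.42, limma adjusted p = 0.980).

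Sod2 (x04972_s_at, type b) read 3158.8, 3298.5 and 3687.5 on wild type arrays 1, 5 and 7, 2126.1, 2675.4 and 3110.1 on heterozygous arrays 3, 4 and 8, and 2856.6, 2677.2 and 3698.9 on mutant arrays 2, 6 and 9b. Heterozygous arrays lay under all wild type arrays, while mutant arrays lay on both sides, 9b being the highest of all. The difference from wild type was -0.15 in mutants (interval -0.63 to 0.33) and -0.37 in heterozygotes (interval -0.85 to 0.11). Neither was called, and without arrays 8a and 9b the mutant difference was -0.29.

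Cat, the peroxisomal catalase, was the flattest member in mutants. Its probe set (l25069_s_at, type a) read 1750.2, 1845.5 and 1632.8 on wild type arrays 1, 5 and 7, 1597.5, 1683.5 and 2378.8 on heterozygous arrays 3, 4 and 8, and 1867.3, 1610.6 and 1751.3 on mutant arrays 2, 6 and 8a. The wild type mean of 1743 ± 107 and the mutant mean of 1743 ± 129 were the same to the digits shown (SD, n = 3). The interval of the difference was -0.46 to 0.46.

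In the glutathione branch, Gpx1, the cytosolic glutathione peroxidase, spread widely between replicates. Its probe set (x03920-2_at, type b) read 836.9, 1530.5 and 1069.3 on wild type arrays 1, 5 and 7 and 833.3, 1867.4 and 1548.9 on mutant arrays 2, 6 and 9b. Heterozygous arrays 3, 4 and 8 lay within that range at 1282.3, 1026.0 and 1255.6. The mutant difference was 0.27 (SE 0.354, interval -0.51 to 1.05, limma adjusted p = 0.860). It was 0.03 without mutant array 6 and 0.61 without mutant array 2.

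Gclc encodes the catalytic subunit of glutamate-cysteine ligase, the rate-limiting enzyme of glutathione synthesis, and was the member closest to the pair that chose the list. Its brighter probe set (u85498_s_at, type a) read 810.6, 1499.1 and 888.8 on wild type arrays 1, 5 and 7. It read 1265.1, 1491.2 and 857.8 on heterozygous arrays 3, 4 and 8, and 827.3, 920.0 and 451.9 on mutant arrays 2, 6 and 8a. The genotypes overlapped and 8a stood lowest. The mutant difference was -0.55 (SE 0.360, interval -1.34 to 0.24, limma adjusted p = 0.626), and -0.23 without arrays 8a and 9b.

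The dimmer Gclc probe set (aa408634_rc_at, type a) read 473.4, 543.8 and 548.9 on wild type arrays 1, 5 and 7, 550.7, 753.8 and 407.0 on heterozygous arrays 3, 4 and 8, and 399.8, 286.3 and 363.4 on mutant arrays 2, 6 and 8a. All mutant arrays lay under all others, as in 5.97% of tested probe sets, but only 1 of 3 exceeded the floor. The fitted difference of -0.44 (SE 0.224, interval -0.93 to 0.05, limma adjusted p = 0.50) thus depends on the floor. It was -0.59 with the floor halved. Whether Gclc is lower in mutants was thus not settled by either probe set.

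Taken over the 8 genes that were not chosen for a fall, none of the 10 probe sets was called in mutants against wild type by limma, and none had an unadjusted p under 0.05, which 11.2% of all tested probe sets had. Their differences ran from -0.55 to 0.27, 8 of 10 were negative (53.1% of all tested probe sets), and the median over genes was -0.03, next to a median of -0.03 over all 3909 tested genes. In 4 of the 10 the sign changed under at least 1 alternative setting. Only the dimmer Gclc probe set had all mutant arrays under all wild type arrays, a pattern of 8.57% of tested probe sets. For 8 of the 10 probe sets, of 7 genes, the interval ended above the Txnrd1 difference of -0.82. A fall of that size thus lay outside the interval for Txn1, Prdx1, Prdx2, Sod1, Sod2, Cat and Gpx1, and inside it for Gclc. That size is the value that chose Txnrd1, and its own interval ran up to -0.47. A fall of -0.47 lay inside the intervals of Prdx2, Sod2 and Gpx1 as well. A smaller fall remained inside the interval of every one.

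**Figure D2:**
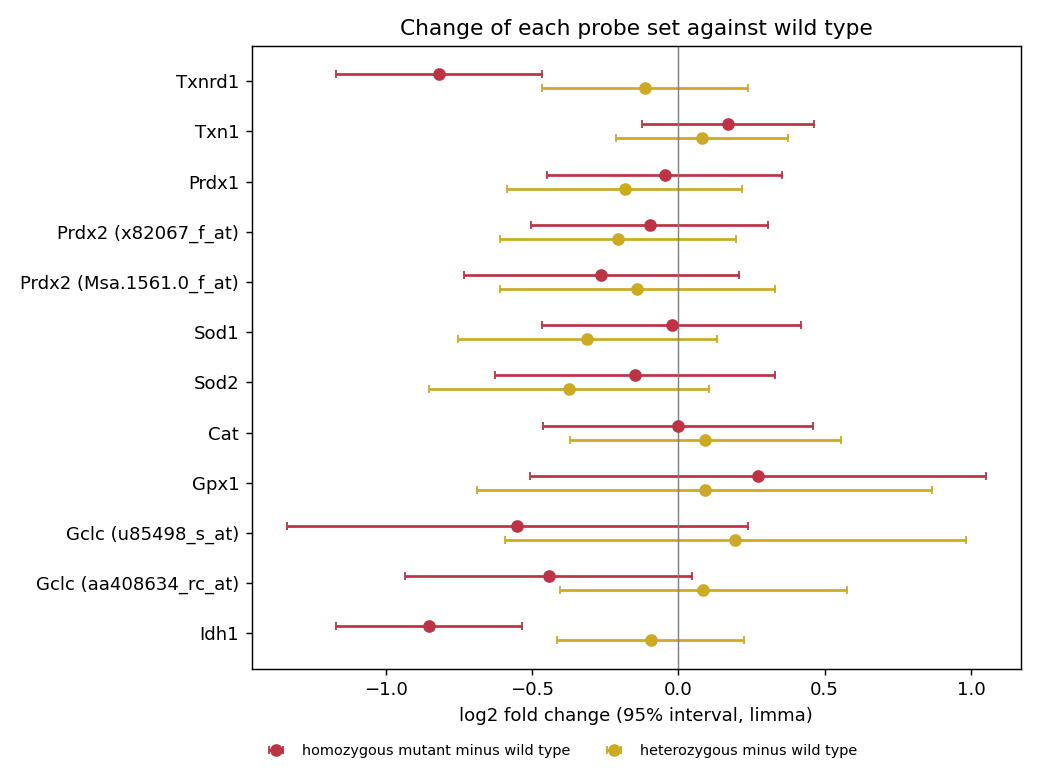
Log2 fold change against wild type (horizontal axis) of each member probe set in homozygous mutants and in heterozygotes, with points at the limma estimate and bars for the 95% interval. Txnrd1 at -0.82 and Idh1 at -0.85, chosen for this difference, lie at the left, and the intervals of the other members include 0.

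Heterozygotes gave no called member by limma among 12 probe sets and none with an unadjusted p under 0.05, where 0% of all tested probe sets were called and 1.7% had such a p. In 3 of 12 probe sets (25%), of Idh1, Prdx1 and Sod2, every heterozygous array lay under every wild type array, against 2.84% of all tested probe sets. The differences were -0.09, -0.18 and -0.37, all with intervals that include 0. In mutants against heterozygotes the 10 other probe sets had no call either, the largest difference being that of the brighter Gclc probe set at -0.74 (limma adjusted p = 0.355). There 1 of them, the dimmer Gclc probe set, had an unadjusted p under 0.05 (0.0366, limma adjusted p = 0.282), as 15.7% of all tested probe sets did.

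Txnrd1 and Idh1 followed each other over the 9 type a arrays (r = 0.92 on log2 values), a value that holds the genotype difference by which both were chosen. Over the 6 wild type and heterozygous arrays alone r was 0.582. Among 2998 genes of the same array type, those most like Txnrd1 over the 9 arrays were Psmc1, an ATPase subunit of the proteasome (r = 0.977), Smarce1, a subunit of the BAF chromatin remodelling complex (r = 0.967), Tmbim6, a membrane protein of the endoplasmic reticulum (r = 0.962), Fez1, a neuronal transport adaptor (r = 0.955), and Rrs1, a ribosome assembly factor (r = 0.951). Without the mutant arrays r was 0.933 for Tmbim6, 0.904 for Rrs1, 0.886 for Psmc1, 0.746 for Smarce1 and 0.701 for Fez1. These points share libraries and scaling, and each r is a description.

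The genes most like Idh1 were Mrpl20, a mitochondrial ribosomal protein (r = 0.968), Actl6a, a BAF subunit (r = 0.959), Bysl, needed to build the small ribosomal subunit (r = 0.959), Scd1, a fatty acid desaturase (r = 0.94), and Sae1, a subunit of the SUMO-activating enzyme (r = 0.94). Mrpl20 at -0.99 and Bysl at -1.29 fell in mutants against wild type (limma adjusted p = 0.0191 and 0.0219). The likeness was taken over arrays that include the mutants, where Idh1 was low, so a low mutant level was built into this choice. Without the mutant arrays the likeness was smaller, with r = 0.594 for Mrpl20, 0.51 for Bysl, 0.232 for Sae1, 0.082 for Actl6a and -0.65 for Scd1. Idh1 ranged only from 4360.4 to 4857.7 on those 6 arrays, so there was little variation to follow.

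Beyond the members, 118 genes of redox and NADPH metabolism were listed, 75 were on the arrays and 58 were tested, by the brightest probe set of each. None was called in any comparison by limma. In mutants against wild type 28 differences were negative and 30 positive, with a median of 0.06, and 16 of 58 (27.6%) had an unadjusted p under 0.05, against 11.2% of all tested probe sets. In heterozygotes that number was 0, and against heterozygotes it was 15 (25.9%), beside 15.7% of all. Mutant arrays all lay under the wild type arrays in 6 of the 58 (10.3%), beside 8.57% of all tested probe sets. In 8 (13.8%) they all lay above, beside 7.38% of all. The shares of all count every tested probe set and not the brightest of each gene, so the bases are not alike. The redox genes thus did not move as a block, and those with the smallest p had differences of both signs.

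In the thioredoxin and peroxiredoxin list 7 of 11 tested genes were negative in mutants, with a median of -0.09 and a range from -0.84 to 0.77. Glrx, the cytosolic glutaredoxin, read 922.3, 919.8 and 1140.9 in wild type and 508.9, 499.1 and 660.5 in mutants. The mutant arrays all lay under the wild type arrays, as in 8.57% of all tested probe sets. The difference of -0.84 (SE 0.244) was not called (limma adjusted p = 0.183). It was -0.40 with the floor doubled. Selenop, the secreted selenium carrier, had a difference of 0.77 (limma adjusted p = 0.252). In the glutathione list 9 of 13 were positive, with a median of 0.15. Slc3a2, the heavy chain of the cystine transporter, had 0.75 (limma adjusted p = 0.280), and Gpx3, the plasma glutathione peroxidase, 0.69 (limma adjusted p = 0.466), or 0.36 without mutant array 9b.

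The Nrf2 list, which holds the factor, its partner Mafg, its competitor Bach1, the related Nfe2l1, genes it is known to induce and some, such as Hmox2, that it is not, had 7 of 13 positive and a median of 0.14. Its upper end was the metal-binding metallothioneins. Mt2 read 5294.3, 5427.1 and 2535.9 in wild type and 11694.6, 7469.2 and 12236.6 in mutants. All mutant arrays were higher than all wild type arrays, as in 7.38% of all tested probe sets. The difference was 1.29 (SE 0.280, limma adjusted p = 0.0701). Mt1 read 3646.2, 220.1 and 61.9 in wild type, -519.5, 1263.7 and 2997.6 in heterozygotes and 11417.0, 5186.3 and 11828.2 in mutants. Only 1 wild type array exceeded the floor, so the fitted 3.15 (SE 0.774, limma adjusted p = 0.117) depends on the floor. By limma 4 of the 13 had an unadjusted p under 0.05, all higher in mutants: Mt1, Mt2, Hmox1 (0.87) and Sqstm1 (0.41). Of all tested probe sets 11.2% had such a p. Hmox1, Sqstm1 and Nfe2l2, which encodes Nrf2 itself, were looked at after their values were seen. Nfe2l2 had -0.15.

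The list of other NADPH producers also holds pentose phosphate enzymes that make no NADPH themselves, namely Tkt, Taldo1, Rpia and Pgls. Among its 8 tested genes, these included, 4 were negative and 4 positive in mutants, with a median of -0.04. Their difference from Idh1 was not tested. Taldo1, transaldolase of the pentose phosphate pathway, had -0.70 (interval -1.29 to -0.12, limma adjusted p = 0.344), and Mthfd2, a mitochondrial folate enzyme, 0.54 (limma adjusted p = 0.227). Idh2, the mitochondrial NADP-dependent counterpart of Idh1, was named after its value was seen. It read 7996.5, 8216.6 and 7510.7 in wild type and 9531.6, 9094.3 and 14525.0 in mutants, every mutant array above every wild type array, as in 7.38% of tested probe sets. The difference of 0.45 (SE 0.183) was not called (limma adjusted p = 0.373) and was 0.24 without array 8a, whose actin signal stood apart from the other arrays.

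In the citrate cycle list 6 of 12 were negative, with a median of -0.08. Cs, citrate synthase, read 4575.9, 5156.5 and 4595.8 in wild type and 3020.9, 4000.8 and 2827.9 in mutants. All mutant arrays were lower, as in 8.57% of all tested probe sets. The difference was -0.56 (SE 0.158, limma adjusted p = 0.170). Acly, which splits cytosolic citrate, had -0.41 (limma adjusted p = 0.283). Of 8 oxidant source genes on the arrays only Rac1, a GTPase that activates the NADPH oxidase, was tested, at -0.03.

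**Figure D3:**
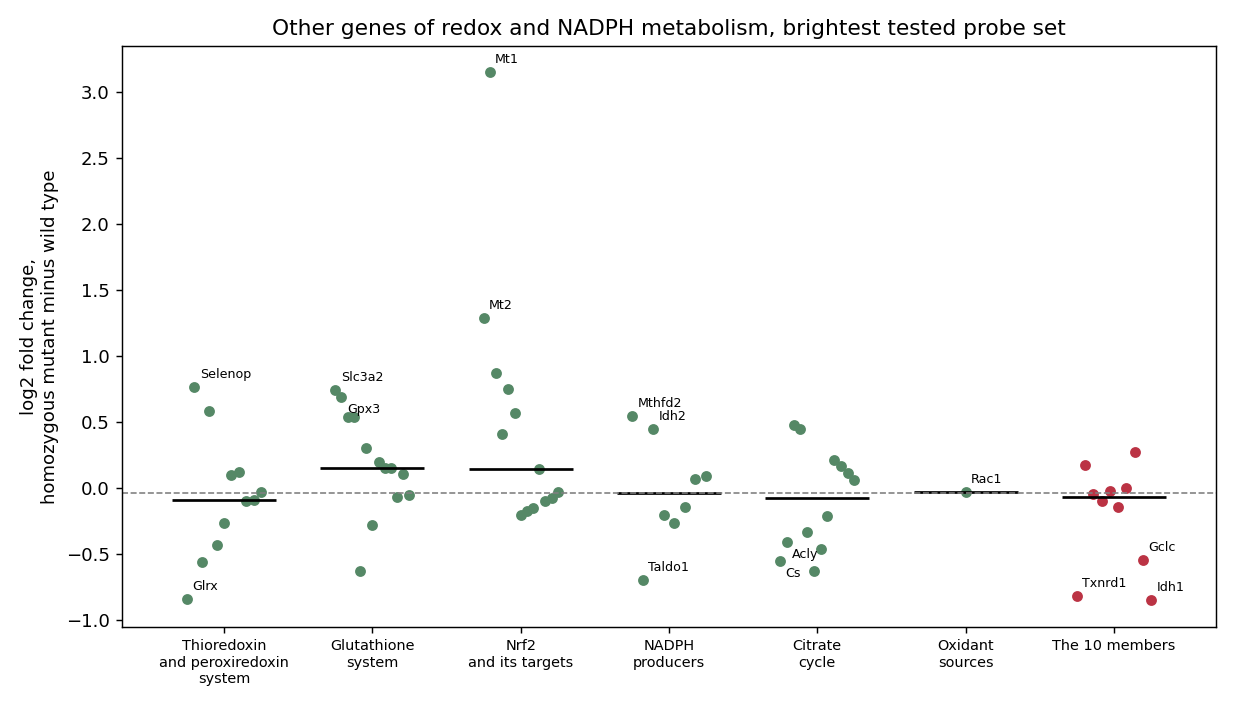
Log2 fold change in homozygous mutants against wild type (vertical axis) of each tested gene by list, with bars at list medians and a dashed line at the median of all tested genes. Points lie on both sides of the line in the 5 larger lists, from Glrx at -0.84 to Mt1 at 3.15, and the 10 members are at the right.

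Array quality and tissue make-up were set beside these values. Mutant arrays 8a and 9b stood apart, with an actin 3′ to 5′ signal ratio of 2.5 on type a and 2.28 on type b, against at most 1.41 and 1.40 on the others. Their signal on the BioB control probe sets was 3950 and 4531, against at most 1539 and 2320 on the others. Without 8a and 9b Txnrd1 differed by -0.74 and Idh1 by -0.89 between mutant and wild type. Afp, a liver bud and visceral endoderm marker, was high on 1 array per genotype and type. On type a it read 1406.3 on wild type 1, 1257.3 on heterozygous 4 and 1775.2 on mutant 2, against 90.6 to 233.8 elsewhere. On type b the arrays of the same numbers were highest. All 9 tested neural tube markers were negative in mutants against wild type, as were 53.1% of all tested probe sets. The median of the 9 was -0.91. None was called against wild type, and 4 of 9 had an unadjusted p under 0.05 by limma, against 11.2% of all tested probe sets. Against heterozygotes 4 of 9 had such a p as well, beside 15.7% of all. In that comparison Hes5, a Notch target of neural progenitors, fell by 1.26 on the log2 scale (limma adjusted p = 0.0335). Neural tube marker sums on type a were 13554 to 19098 in wild type, 13372 to 19294 in heterozygotes and 6673 to 10109 in mutants. Sox3, Neurod1 and Neurog1 were above the floor on no array. The part of neural tissue in the Txnrd1 and Idh1 levels was not tested. Medians in mutants against wild type were 0.09 for 8 heart markers (range -1.15 to 0.85) and 0.17 for 9 liver bud and visceral endoderm markers (range -0.63 to 2.19). For 5 tested myeloid markers the median was -0.12. In heterozygotes against wild type all 8 heart markers were negative, with a median of -0.4 beside 0.02 over all tested genes, and none was called. Of the 7 myeloid markers on the arrays, Csf1r and Mpo were never above the floor and are not among those 5. Nkx2-5 itself had no named probe set, so it gives no check of the genotype labels.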

How the data were processed

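The values as deposited are linear intensity, 1 per probe set, and include negative numbers, as after background subtraction. The authors' array software and scaling method is not given in the sources used here. The scaling was kept as deposited. On type b, heterozygous array 8 had 499 missing values and a trimmed mean intensity of 1624. The other type b arrays had trimmed means of 1471 to 1481 and no missing values. No value of a member probe set was missing. Gene symbols were those of the platform annotation, brought up to date by gene identifier, and only probe sets with 1 symbol are named. After 61 control probe sets per type were left out, values under a floor of 2 times the noise SD (187.5 on type a, 261.5 on type b, from the negative values) were raised to it before log2 was taken. Probe sets above the floor on at least 3 of 9 arrays were tested, 3969 on type a and 2966 on type b, with limma 3.58.1 in R 4.3.3 (lmFit, eBayes with intensity trend, two-sided). The 3 genotypes of a type were fitted together. The code was tested on simulated data. The number of arrays limits the precision.

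The members, gene lists and tests were chosen with earlier results of these data known. All 10 members are named, and of each pathway list every gene past the threshold in any comparison, otherwise the 2 with the smallest unadjusted p in mutants against wild type. For Txnrd1 and Idh1 the 5 most correlated genes are named. Alternatives changed the floor, the filter, the normalization, the arrays fitted, the variance trend, the adjustment, an Afp covariate and each replicate. Protein sequences were not used here.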

Additional observations from a re-analysis of the deposited data

How the results depend on the processing

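Of the counts, those over all probe sets in mutants against wild type (48) came to 19 with no filter on low signal and to 7 with only the compared genotypes fitted, and leaving out 1 replicate gave 14 (without wild type 5) to 46, or 55 without mutant arrays 8a and 9b. Against heterozygotes (80) they came to 45 and 40, and leaving out 1 replicate gave 14 (without heterozygous 3) to 86, or 88 without mutant arrays 8a and 9b. In heterozygotes against wild type leaving out 1 replicate gave 0 to 1. Of the member probe sets called in mutants against wild type (2), 1 was called with the floor at 1 times the noise SD, with no filter, with quantile normalization and with Afp as a covariate, and 0 with only the compared genotypes or with no intensity trend. Leaving out 1 replicate gave 0 to 1. Against heterozygotes (1) the number was 0 with only the compared genotypes and 0 with no intensity trend, and 0 to 1 when 1 replicate was left out. Among the pathway genes leaving out 1 replicate gave 0 to 1 calls in either comparison of mutants: Mt1 without wild type 1 (4.09, limma adjusted p = 0.0340), and against heterozygotes Mt2 without wild type 7 (1.01) and Cs without mutant 6 (-0.82). The 10 other member probe sets were never called in 179 alternative fits per comparison, with a smallest limma adjusted p of 0.384 in mutants against wild type. No called value changed direction. The cause of the lost calls was not tested. No paired analysis was possible because the genotypes share at most 1 replicate number. Signal next to the floor limits the dimmer Gclc probe set and Mt1.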

Other observations

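On type a, the arrays with the 4 lowest Sod1 values were also those with the 4 highest values of 1 Gclc probe set. The 4 lowest Sod1 values were 5547.3 and 5604.1 on heterozygous arrays 4 and 3, 5559.5 on mutant array 6 and 6126.9 on wild type array 5. The 4 highest values of the brighter Gclc probe set were on the same arrays, 1499.1 on wild type 5, 1491.2 and 1265.1 on heterozygous 4 and 3, and 920.0 on mutant 6. The dimmer Gclc probe set did not share this, with its lowest value of all 9 arrays, 286.3, on mutant 6. The probe set shared by Prdx1 and Gm21399 was also highest there, with 28631.3 on wild type 5, 26106.8 and 25176.9 on heterozygous 3 and 4, and 22333.6 on mutant 6. The same arrays had the 4 lowest actin 3′ to 5′ signal ratios of type a. These were 0.97 on heterozygous 4, 1.06 on wild type 5, 1.06 on mutant 6 and 1.09 on heterozygous 3. The other type a arrays had 1.18 to 2.5. These 4 arrays come from all 3 genotypes, and the pattern was noticed after the values were seen. Neither the pattern nor its link to the actin ratio was tested.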
